A study of Mus musculus with 6 samples.

Results

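The 46 genes described here encode the extracellular side of Wnt signaling in mouse skin. They were picked by symbol from the 23951 genes of the expression table, as every Wnt ligand, Frizzled receptor, secreted frizzled-related protein (Sfrp) and Dickkopf gene (Dkk, with the related Dkkl1), together with the inhibitor Wif1, the co-receptors Lrp5 and Lrp6, the 4 R-spondins (Rspo) and the feedback gene Axin2. RNA sequencing had been carried out on whole skin of 3 JunBΔep and 3 control mice at 6 to 7 months of age, to compare lesional skin of the mutant with control skin. JunBΔep mice (labelled JunB dep) lack JunB, a subunit of the AP-1 transcription factor, in cells that express keratin 5, where a K5-Cre transgene deletes the floxed gene. Control mice are labelled JunB +/+, and both groups were on the C57Bl/6 strain. The deletion reaches keratin 5-expressing epithelium alone, so by design the dermal, immune, fat and muscle cells of the same sample keep JunB.

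Wnt ligands are secreted lipid-modified proteins that bind a Frizzled receptor and an Lrp co-receptor on the receiving cell. In the canonical branch this stops the destruction of β-catenin, which then enters the nucleus and works with TCF/LEF factors on target genes such as Axin2. R-spondins strengthen the signal by keeping Frizzled receptors on the cell surface, whereas Sfrp proteins and Wif1 bind ligands outside the cell and Dickkopf proteins block the Lrp co-receptors. In skin, Wnt signaling maintains basal keratinocytes, starts the growth phase of the hair follicle (anagen) and guides formation of the hair shaft.

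The values are FPKM, fragments per kilobase of transcript scaled to the mapped fragments of each library, so levels can be compared between genes. Mice are named by genotype and by the replicate number, 0, 1 or 2, that the sample labels give. FPKM summed to between 481078 and 630363 per mouse, the number of reads behind the values is unknown, and no counting interval can be given. Junb itself ranged from 56.9 to 72.4 FPKM over the controls, while skin labelled JunBΔep replicates 1 and 2 had 42.8 and 28.0 FPKM. The library labelled JunBΔep replicate 0 reached 129.6 FPKM of Junb, above every control. Cells other than keratin 5-expressing epithelium keep JunB by design, so this level in whole skin cannot decide the label, which was not tested. Keratinocyte keratins were present in every library, with Krt5 between 1588 and 3725 FPKM and Krt10 between 1968 and 3872 FPKM. Whether all of this keratin came from skin was not tested. The highest Krt5 was in the library labelled JunBΔep replicate 0, where Krt14 was listed at 0. That library also stood apart in a list of 5 genes of oral and oesophageal epithelium, which summed to 3798 FPKM there and to at most 1.41 FPKM in any other library, and a list of 5 liver genes summed to 1665 FPKM in control replicate 0 and to at most 29.5 FPKM elsewhere.

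Most of the Wnt genes were expressed in this skin. Averaged over the 6 mice, 16 of the 46 were at 10 FPKM or more, 19 between 1 and 10 FPKM, and 11 below 1 FPKM. Of those 11, Dkk1, Dkk4, Wnt1, Wnt8b and Wnt9b were below a mean of 0.1 FPKM and were not tested, which left 41 genes. All 10 Frizzled receptors were above a mean of 1 FPKM, against 12 of the 19 ligands. Among ligands, Wnt4, Wnt10a, Wnt7b and Wnt3, known products of the epidermis, together held 74.6%, 73.5% and 60.1% of the summed ligand FPKM in the controls, in the order of their replicate numbers. In skin labelled JunBΔep their share was 76.9%, 51.0% and 73.9%, in the same order. The smallest shares were thus in JunBΔep replicate 1 and control replicate 2, 1 mouse from each genotype. The summed level of all 19 ligands was 111, 113 and 106 FPKM in control skin against 91.4, 169 and 105 FPKM in skin labelled JunBΔep, so the groups overlapped.

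**Figure D1:**
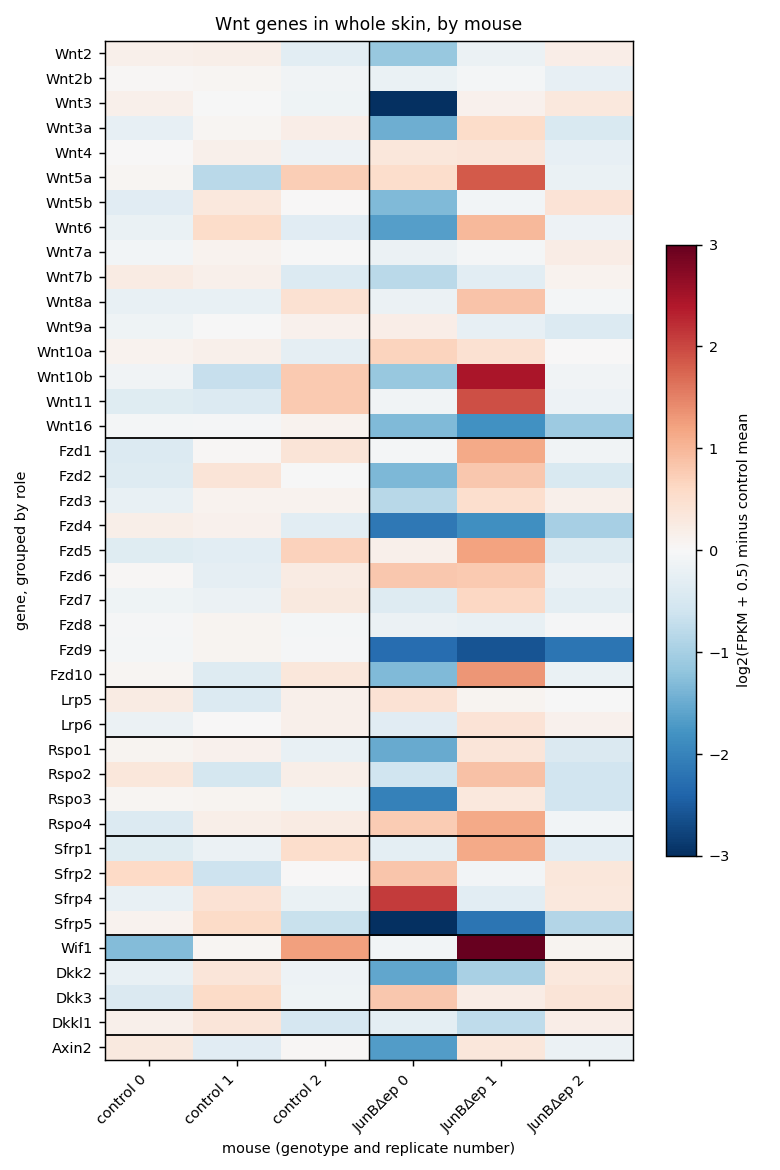
Level of the 41 tested Wnt genes in each mouse, as log2(FPKM + 0.5) minus the control mean of the same gene (color, cut at -3 and 3), with genes in rows by role and mice in columns. The rows of Fzd4, Fzd9, Wnt16 and Sfrp5 are lower in all 3 columns labelled JunBΔep, while Wnt3 is low in the column of JunBΔep replicate 0 alone.

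In this family, 4 genes were lower in every library labelled JunBΔep than in any control: the receptors Fzd9 and Fzd4, the ligand Wnt16 and the antagonist Sfrp5. Of these, Fzd9 alone passed the adjusted test over all genes (limma on log2(FPKM + 0.5) with Benjamini-Hochberg adjustment, two-sided, threshold 0.05). No member was higher in skin labelled JunBΔep, either by the adjusted test or at an unadjusted p below 0.05. The shares over the whole table give the scale. Of all 17021 genes tested, 1.38% were called, all of them lower (members 1 of 41, 2.44%). The groups did not overlap, with JunBΔep lower, in 9.16% of all genes (members 4 of 41, 9.76%), and with JunBΔep higher in 5.62% of all genes (members 0 of 41). At an unadjusted p below 0.05, 6.13% of all genes were lower (members 4 of 41, 9.76%) and 1.43% were higher (members 0 of 41). The share of Wnt genes that were lower without overlap was thus near that of genes in general. The median log2 fold change was -0.06 over the 41 Wnt genes and 0.03 over all genes tested, and 41.5% of the members against 53.4% of all genes had a positive value. The sign of the members' median was not stable, as it was 0.15 without the library labelled JunBΔep replicate 0, -0.32 without JunBΔep replicate 1 and 0.25 with array weights.

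Fzd9 encodes a Frizzled receptor. Control skin held 3.25, 3.64 and 3.28 FPKM against 0.297, 0.143 and 0.351 FPKM in skin labelled JunBΔep, each set in the order of replicates 0, 1 and 2, as in the values below. Every library labelled JunBΔep was far below every control. The control mean, 3.39 ± 0.219 FPKM (SD, n = 3), was 12.9 times the mean of the libraries labelled JunBΔep, 0.264 ± 0.108 FPKM (SD, n = 3). On the log2(FPKM + 0.5) scale, where the added 0.5 exceeds the lower values and so shrinks the difference, the log2 fold change was -2.36 (standard error, SE, 0.21, with limma adjusted p = 0.0179). It was -3.31 with a pseudocount of 0.1 and -1.80 with a pseudocount of 1. With 1 mouse left out, the log2 fold change stayed between -2.44 and -2.24, but the call was not kept in each case. The adjusted p from limma was 0.0410 without JunBΔep replicate 0 and 0.0157 without JunBΔep replicate 2. It was 0.121, 0.119 and 0.112 without control replicates 0, 1 and 2 and 0.0666 without JunBΔep replicate 1, fits in which no gene of the whole table was called. A block on the number series of the sample titles, which puts control replicates 0 and 1 with JunBΔep replicate 0, also ended the call (adjusted p = 0.0661 from limma). Over all 19 alternatives tried, the adjusted p of Fzd9 from limma ran from 0.00298 to 0.202.

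Wnt16 encodes a ligand best known for its role in cortical bone. Its level was 2.87, 2.94 and 3.31 FPKM in control skin against 0.912, 0.496 and 1.16 FPKM in skin labelled JunBΔep. The groups were well separated, with means of 3.04 ± 0.238 FPKM and 0.856 ± 0.336 FPKM (SD, n = 3 each). The log2 fold change was -1.41 (SE 0.26, limma adjusted p = 0.0826), which missed the threshold.

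Fzd4 encodes a receptor for Wnt ligands and for norrin, through which it guides the growth of retinal vessels. It was at 8.76, 8.51 and 6.12 FPKM in control skin against 1.35, 1.79 and 3.64 FPKM in skin labelled JunBΔep. The nearest values of the groups were those of control replicate 2 and JunBΔep replicate 2. The means were 7.80 ± 1.46 and 2.26 ± 1.22 FPKM (SD, n = 3 each), and the log2 fold change was -1.66 (SE 0.36, limma adjusted p = 0.140). Without JunBΔep replicate 2 the fall passed the threshold (log2 fold change -1.99, adjusted p = 0.0447 from limma). Over the 19 alternatives tried, the adjusted p of Fzd4 ran from 0.0285 to 0.752.

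Sfrp5 encodes a secreted antagonist that binds Wnt5a, known from fat tissue. Its values were 16.6, 23.0 and 9.43 FPKM in control skin against 1.46, 2.96 and 8.17 FPKM in skin labelled JunBΔep. The groups were separate, but only narrowly, between control replicate 2 and JunBΔep replicate 2. Its log2 fold change of -2.03 had a standard error of 0.61 and an adjusted p of 0.376 from limma.

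**Figure D2:**
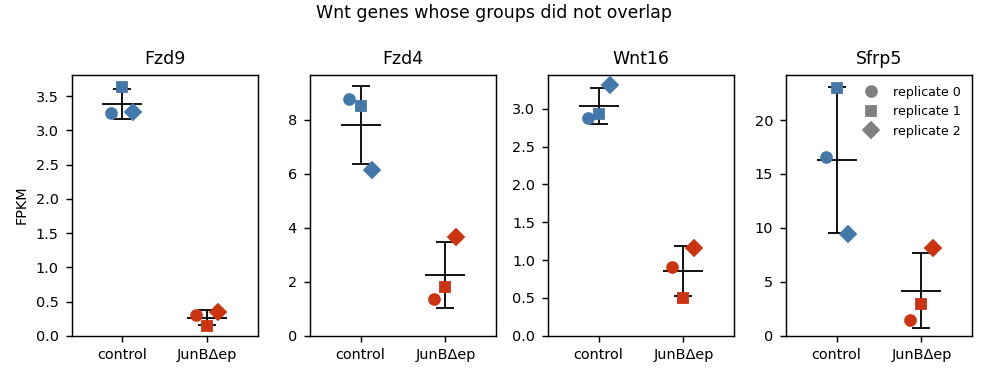
FPKM of Fzd9, Fzd4, Wnt16 and Sfrp5 in each mouse (points, shape by replicate number), with the mean and SD of 3 mice per genotype (bars). Fzd9 spans 3.25 to 3.64 FPKM over the controls and 0.143 to 0.351 FPKM over the libraries labelled JunBΔep, and in all 4 genes JunBΔep replicate 2 is the highest of the libraries labelled JunBΔep.

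Whole skin is a mixture, and fewer cells of a type cannot be told apart from less RNA per cell. Transcripts of skeletal muscle, which lies under mouse skin as the panniculus carnosus, followed the same split as these 4 genes. All 16 genes on a list of muscle markers were lower in skin labelled JunBΔep with no overlap, and 11 of the 16 passed the adjusted test (limma). These calls were lost without any 1 control, without JunBΔep replicate 1, and with a block on replicate or title number. In those fits no gene of the whole table was called. The summed level of the 16 genes ran from 26151 to 35549 FPKM in control skin against 2441 to 5866 FPKM in skin labelled JunBΔep. Their median log2 fold change was -3.22. Of the libraries labelled JunBΔep, replicate 2 was the highest for 14 of the 16 muscle genes, as it was for Fzd9, Wnt16, Fzd4 and Sfrp5. Replicate 2 was also the highest of these libraries for every marker of adipocytes, endothelium and Schwann cells. The order was thus not particular to muscle. The 6 endothelium markers summed to 53.4 to 73.3 FPKM over the controls against 55.0, 29.6 and 112 FPKM in skin labelled JunBΔep. The 4 Schwann cell markers summed to 80.0 to 175 FPKM against 25.6, 63.2 and 163 FPKM. Among the muscle markers, the slow myosin Myh7 was listed at 0 in JunBΔep replicates 0 and 1. The part of muscle in the lower level of the 4 Wnt genes was not tested. The 6 adipocyte markers summed to 1279 to 3999 FPKM over the controls against 60.2, 2258 and 9945 FPKM in skin labelled JunBΔep, so the sums overlapped. All 6 had a negative log2 fold change, 0 were called or at an unadjusted p below 0.05 (limma), and Lep alone was lower without overlap. Of 8 dermal fibroblast markers, 7 had a negative log2 fold change (median -0.70), with sums of 1056 to 2671 FPKM over the controls against 738 to 1623 FPKM in skin labelled JunBΔep. Dpt alone of these was lower without overlap and at an unadjusted p below 0.05, and 0 of the 8 were called (limma). A list of 6 hair follicle stem cell genes summed to 1896, 2579 and 1265 FPKM in control skin against 167, 1092 and 1498 FPKM in skin labelled JunBΔep, with Cd34 alone lower without overlap and at an unadjusted p below 0.05, and 0 of the 6 called (limma). The parts of fat, endothelium, Schwann cells, fibroblasts and follicle stem cells in the Wnt values were not tested.

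The sequences just upstream of the 4 lower genes are given here because the deleted protein is a DNA-binding AP-1 subunit. On mm9, Fzd9 is a gene of 1 exon at chr5:135724808-135727100 on the minus strand, Fzd4 has 2 exons at chr7:96552876-96558620 on the plus strand, Wnt16 has 4 exons at chr6:22238227-22250409 on the plus strand and Sfrp5 has 3 exons at chr19:42272461-42276742 on the minus strand. The upstream windows are from RefSeq on GRCm38.p6, a different build, and hold the 250 bases before the annotated start, in the direction of transcription. For Fzd9 only the 67 bases are shown that precede the transcript start of the mm9 annotation. The windows are chr5:135251231-135251297 (minus strand) for Fzd9, chr7:89404116-89404365 (plus strand) for Fzd4, chr6:22287977-22288226 (plus strand) for Wnt16 and chr19:42202253-42202502 (minus strand) for Sfrp5. Capitals mark a CCAAT box (CCAAT, or ATTGG on the other strand) or a GC box (GGGCGG, or CCGCCC on the other strand), both common elements of promoters.
Fzd9: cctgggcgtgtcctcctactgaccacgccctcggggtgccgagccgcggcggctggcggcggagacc
Fzd4: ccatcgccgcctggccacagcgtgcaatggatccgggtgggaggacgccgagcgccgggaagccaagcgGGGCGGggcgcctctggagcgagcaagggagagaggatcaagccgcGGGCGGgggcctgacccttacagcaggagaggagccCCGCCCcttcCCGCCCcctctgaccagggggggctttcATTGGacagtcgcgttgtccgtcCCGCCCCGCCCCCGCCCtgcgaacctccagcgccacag
Wnt16: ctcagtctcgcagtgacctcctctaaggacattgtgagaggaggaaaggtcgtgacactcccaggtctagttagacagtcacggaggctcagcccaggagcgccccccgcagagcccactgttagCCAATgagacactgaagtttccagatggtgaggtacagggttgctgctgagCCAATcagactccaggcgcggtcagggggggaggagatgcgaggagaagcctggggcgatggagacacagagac
Sfrp5: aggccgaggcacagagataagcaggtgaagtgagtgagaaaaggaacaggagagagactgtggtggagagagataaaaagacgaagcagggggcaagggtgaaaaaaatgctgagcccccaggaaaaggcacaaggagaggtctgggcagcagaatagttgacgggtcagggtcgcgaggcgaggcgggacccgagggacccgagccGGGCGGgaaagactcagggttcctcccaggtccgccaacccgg

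The 4 windows differed in their makeup. The Fzd4 window was 72.8% G or C, with 25 CG pairs, 7 GC boxes (some overlapping) and 1 CCAAT box, while the Wnt16 window was 59.2% G or C, with 9 CG pairs, 2 CCAAT boxes and no GC box. The Sfrp5 window was 59.6% G or C and held 1 GC box, and the Fzd9 stretch of 67 bases was 77.6% G or C with 9 CG pairs. The full Fzd9 window of 250 bases was 76.4% G or C and held 1 GC box, which is not within the stretch shown. The median over all 32851 windows of 250 bases was 52.4%. Searched on both strands, the AP-1 motif TGANTCA was in none of the 4 full windows, and neither was the TCF/LEF core CTTTGA. RefSeq windows were matched for 30 of the 46 Wnt genes, 33 windows in all. The AP-1 motif was in 1 of the 33 (Wnt5b), against 6.75% of all windows, and the TCF/LEF core was in 4 (Dkk1, Fzd1, Wnt11 and Wnt5b), against 13.8% of all windows. A CCAAT box was in 10 of the 33, against 33.8% of all windows. A GC box was in 23 of the 33, against 32.7% of all windows. These are matches of letters in a short stretch and say nothing about binding.

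The 5 members with the highest means of the 46 gave no call (limma), at the adjusted threshold or at an unadjusted p below 0.05. Dkkl1, a Dickkopf relative first known from sperm, was at 84.6, 97.0 and 52.9 FPKM in control skin against 62.0, 44.3 and 86.8 FPKM in skin labelled JunBΔep. The values of the groups were interleaved (log2 fold change -0.29, SE 0.33, limma adjusted p = 0.776), and the 95% interval of the difference ran from -1.10 to 0.53. Wnt4, a ligand of basal keratinocytes, was at 21.4, 23.5 and 18.96 FPKM in control skin against 26.8, 27.3 and 17.8 FPKM in skin labelled JunBΔep, so that JunBΔep replicate 2 was the lowest of all 6 mice. Its log2 fold change was 0.15 (SE 0.22, limma adjusted p = 0.817), with a 95% interval from -0.38 to 0.67.

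Wnt10a, whose loss impairs teeth, hair and sweat glands, was at 20.5, 21.2 and 15.8 FPKM in control skin against 30.4, 26.2 and 19.3 FPKM in skin labelled JunBΔep. Replicates 0 and 1 exceeded all controls and replicate 2 lay among them. The log2 fold change was 0.38 (SE 0.23, limma adjusted p = 0.722), with a 95% interval from -0.17 to 0.93. The receptor Fzd1 was at 13.6, 18.7 and 23.9 FPKM in control skin against 17.6, 40.7 and 16.9 FPKM in skin labelled JunBΔep. Only JunBΔep replicate 1 lay outside the controls, and the log2 fold change of 0.32 (SE 0.40, limma adjusted p = 0.787) became -0.08 without it. The co-receptor Lrp5 was at 23.4, 14.6 and 21.95 FPKM in control skin against 26.7, 20.6 and 19.6 FPKM in skin labelled JunBΔep. Its values were mixed between the groups (log2 fold change 0.17, SE 0.24, limma adjusted p = 0.810) and the fold change was -0.04 without control replicate 1. For Fzd1 and Lrp5 the 95% intervals ran from -0.65 to 1.30 and from -0.41 to 0.75, and changes within the intervals of these 5 genes could not be resolved with 3 mice per group.

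**Figure D3:**
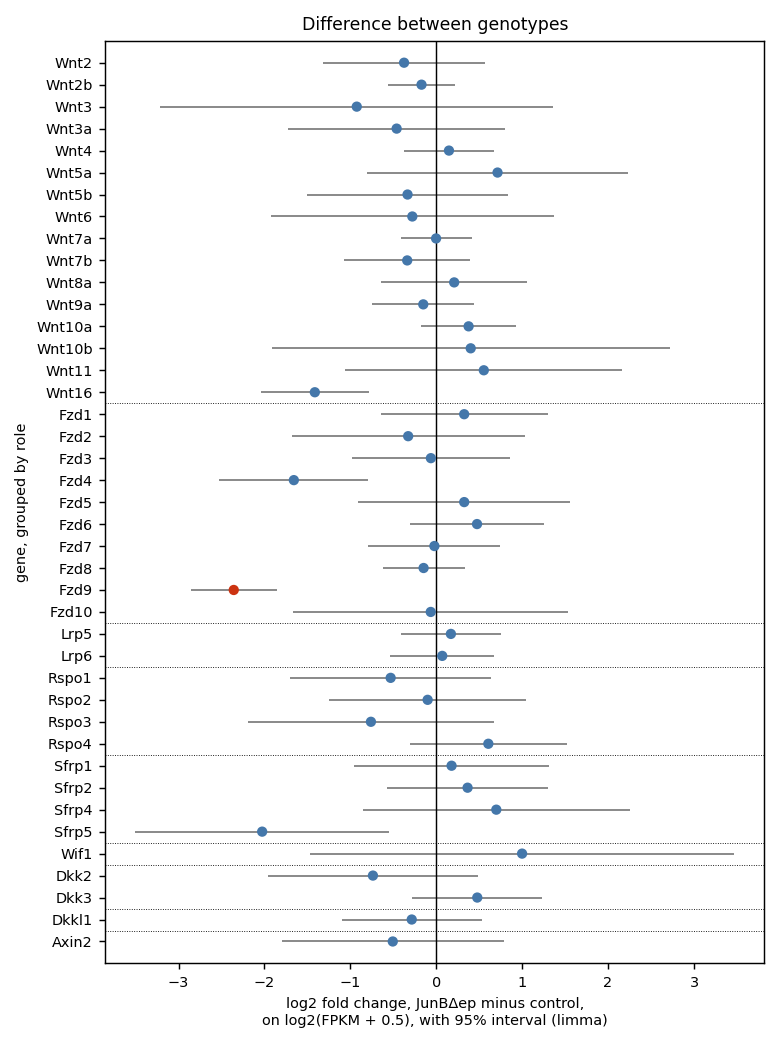
Log2 fold change (JunBΔep minus control, on log2(FPKM + 0.5)) of the 41 tested Wnt genes with the 95% interval from limma, grouped by role, and with the called gene in red. Fzd9 is at -2.36 with an interval from -2.86 to -1.86, and the intervals of Fzd4, Wnt16 and Sfrp5 alone among the others leave out 0.

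Axin2, the usual readout gene of canonical signaling, was at 13.8, 8.66 and 11.3 FPKM in control skin against 3.13, 14.0 and 9.73 FPKM in skin labelled JunBΔep. The lowest and the highest value of all 6 mice were both in skin labelled JunBΔep. The log2 fold change was -0.51 (SE 0.53, limma adjusted p = 0.752) with a 95% interval from -1.80 to 0.78, and it was 0.08 without the library labelled JunBΔep replicate 0. No direction can be given for Axin2 in these mice.

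Several ligands differed more between single mice than between the genotypes. Wnt3, a ligand of the follicle and epidermis, was at 15.6, 14.0 and 12.9 FPKM in control skin against 1.08, 15.5 and 17.6 FPKM in skin labelled JunBΔep. Wnt7b, also epidermal, was at 25.5, 24.0 and 16.0 FPKM in control skin against 12.0, 17.2 and 23.1 FPKM in skin labelled JunBΔep. Both genes were lowest of the 6 mice in the library labelled JunBΔep replicate 0. Wnt10b, which promotes entry of the follicle into growth, was at 3.08, 1.88 and 6.11 FPKM in control skin against 1.23, 20.5 and 3.06 FPKM in skin labelled JunBΔep. Wnt5a, the main ligand of the β-catenin-independent branch, was at 5.71, 2.92 and 9.49 FPKM in control skin against 8.03, 20.7 and 4.67 FPKM in skin labelled JunBΔep. Wnt11, of the same branch, was at 3.63, 3.48 and 8.63 FPKM in control skin against 4.41, 19.7 and 4.27 FPKM in skin labelled JunBΔep. All 3 of these ligands were highest in JunBΔep replicate 1. Wnt6, expressed in epithelium, was at 3.85, 6.84 and 3.44 FPKM in control skin against 1.10, 9.29 and 3.98 FPKM in skin labelled JunBΔep, its lowest and highest values both in that group. The canonical ligand Wnt3a was at 2.61, 3.33 and 3.73 FPKM in control skin against 0.829, 4.92 and 2.18 FPKM in skin labelled JunBΔep, in the same arrangement.

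The remaining ligands were low. Wnt5b ran from 2.42 to 4.11 FPKM in control skin against 0.962 to 4.35 FPKM in skin labelled JunBΔep. Wnt9a ran from 2.30 to 2.80 FPKM in control skin against 1.77 to 2.98 FPKM in skin labelled JunBΔep, and Wnt2b from 0.397 to 0.499 FPKM and from 0.307 to 0.423 FPKM. For each of these ligands the ranges of the genotypes overlapped. Wnt2 was at 1.11, 1.15 and 0.660 FPKM in control skin against 0.159, 0.781 and 1.17 FPKM in skin labelled JunBΔep. Wnt7a stayed between 0.0774 and 0.263 FPKM over the 6 mice, and Wnt8a was at 0.320 FPKM in control replicate 2, 0.597 FPKM in JunBΔep replicate 1 and at most 0.0786 FPKM in the other 4. Of the 3 untested ligands, Wnt9b reached 0.116 FPKM, Wnt1 0.0446 FPKM and Wnt8b 0.0212 FPKM in their highest mouse.

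Among the other Frizzled receptors, which bind ligands through a shared cysteine-rich domain, the groups overlapped in all 8. Fzd10 was at 15.2, 11.1 and 18.6 FPKM in control skin against 5.60, 37.5 and 12.7 FPKM in skin labelled JunBΔep. Fzd7 was at 14.3, 14.0 and 19.4 FPKM in control skin against 11.9, 24.3 and 12.7 FPKM in skin labelled JunBΔep. Fzd2 was at 8.42, 14.7 and 11.1 FPKM in control skin against 4.08, 19.9 and 8.02 FPKM in skin labelled JunBΔep. In each of these 3 receptors the libraries labelled JunBΔep bracketed the controls, with replicate 0 lowest and replicate 1 highest. Fzd6, which orients hairs through the planar polarity pathway, was at 10.9, 8.67 and 12.7 FPKM in control skin against 19.04, 18.6 and 9.40 FPKM in skin labelled JunBΔep. Here replicates 0 and 1 exceeded every control and replicate 2 did not. A list of 6 cell division genes had sums in the same arrangement. They were 45.6, 16.6 and 54.3 FPKM in control skin against 119, 140 and 27.7 FPKM in skin labelled JunBΔep. The part of dividing cells in the Fzd6 values was not tested. Fzd5 ran from 2.02 to 4.74 FPKM in control skin against 2.00 to 7.04 FPKM in skin labelled JunBΔep, and Fzd3, another planar polarity receptor, from 1.01 to 1.42 FPKM and from 0.498 to 1.99 FPKM. Fzd8 was the most even of these 8 receptors, at 2.64 to 2.97 FPKM in control skin against 2.26 to 2.68 FPKM in skin labelled JunBΔep. The co-receptor Lrp6 was at 6.85 to 8.66 FPKM in control skin against 6.02 to 10.5 FPKM in skin labelled JunBΔep.

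The R-spondins, which act through Lgr receptors, were carried by Rspo1 and Rspo3. Rspo1 was at 6.65, 6.91 and 5.33 FPKM in control skin against 1.86, 8.19 and 4.48 FPKM in skin labelled JunBΔep. Rspo3 was at 3.66, 3.73 and 3.13 FPKM in control skin against 0.476, 4.48 and 2.20 FPKM in skin labelled JunBΔep. In both genes the controls lay close together, JunBΔep replicate 1 was above them and replicates 0 and 2 were below. Rspo4, needed for nail growth, was at 0.252, 0.640 and 0.687 FPKM in control skin against 1.20, 1.72 and 0.453 FPKM in skin labelled JunBΔep. Rspo2 was at 0.475, 0.0361 and 0.367 FPKM in control skin against 0.00669, 0.911 and 0.0143 FPKM in skin labelled JunBΔep. All 4 R-spondins had their highest value in JunBΔep replicate 1.

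Of the secreted antagonists other than Sfrp5, none separated the groups. Sfrp1 was at 11.8, 13.6 and 22.5 FPKM in control skin against 12.4, 34.3 and 12.3 FPKM in skin labelled JunBΔep. Sfrp2 was at 12.6, 5.17 and 8.31 FPKM in control skin against 15.0, 7.68 and 10.5 FPKM in skin labelled JunBΔep. Sfrp4 was at 3.63, 5.96 and 3.67 FPKM in control skin against 20.2, 3.34 and 5.47 FPKM in skin labelled JunBΔep. The high value differed between these genes, lying in JunBΔep replicate 1 for Sfrp1 and in replicate 0 for Sfrp2 and Sfrp4. Wif1 was at 1.72, 5.21 and 12.3 FPKM in control skin against 4.66, 43.0 and 5.30 FPKM in skin labelled JunBΔep. Its log2 fold change was the highest of the 41, although replicates 0 and 2 labelled JunBΔep lay within the range of the controls. Dkk3, a Dickkopf relative that does not act on Lrp co-receptors in the usual way, was at 8.34, 17.3 and 10.5 FPKM in control skin against 20.6, 13.6 and 15.3 FPKM in skin labelled JunBΔep. Dkk2 was at 2.35, 3.72 and 2.49 FPKM in control skin against 0.627, 1.18 and 3.59 FPKM in skin labelled JunBΔep. Dkk1 and Dkk4, which block Lrp co-receptors, were below the limit for testing and reached 0.189 and 0.0920 FPKM in their highest mouse.

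A recurring order of the mice, seen in the values above and counted afterwards, cut across genotype. Its leading mice, JunBΔep replicate 1 and control replicate 2, share a number series in the sample titles with JunBΔep replicate 2, and the labels do not say what the series marks. In 12 of the 41 tested members (29.3%), JunBΔep replicate 1 was the highest mouse and control replicate 2 the next, against 5.93% of all genes. These were the ligands Wnt3a, Wnt5a, Wnt8a, Wnt10b and Wnt11, the receptors Fzd1, Fzd5, Fzd7 and Fzd10, the co-receptor Lrp6 and the antagonists Sfrp1 and Wif1. Counting only the highest mouse, JunBΔep replicate 1 led in 21 of the 41 members (51.2%), against 18.9% of all genes. Relative to the median of the 4 remaining mice, Wif1 was 8.72 times as high in JunBΔep replicate 1 and 2.50 times in control replicate 2. For Wnt10b these ratios were 8.31 and 2.47, for Wnt11 5.0 and 2.18, and for Wnt5a 3.98 and 1.83. The ligand Wnt8a had the largest ratios, 26.4 and 14.1, from very low levels, and Lrp6 the smallest, with 1.43 in JunBΔep replicate 1.

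The same pair of mice held the transcripts of growing hair follicles. A list of 18 keratin, trichohyalin and regulator genes of the hair matrix, root sheath and shaft summed to 8.85, 10.9 and 5266 FPKM in control skin against 422, 8305 and 127 FPKM in skin labelled JunBΔep. All 18 genes had these 2 mice above the other 4, and 13 had JunBΔep replicate 1 first. Of these markers, Krt81 was listed at 0 in control replicates 0 and 1, Krt73 in control replicate 0 and Krt85 in the library labelled JunBΔep replicate 0. The sum of 5 melanocyte markers took the same order, with 77.9 FPKM in control replicate 2, 114 FPKM in JunBΔep replicate 1 and 6.88 to 12.8 FPKM in the others. The sum of 8 dermal papilla genes was flatter, between 21.2 and 36.3 FPKM over the 6 mice, and its members were mixed. JunBΔep replicate 1 was the highest mouse for 3 of the 8, JunBΔep replicate 2 for another 3, and control replicate 2 and the library labelled JunBΔep replicate 0 for 1 each. By these markers the 6 mice differed widely in transcripts of growing follicles. All 18 follicle genes had a positive log2 fold change (median 1.95), but none was called (limma), nor did any reach an unadjusted p below 0.05. The part of hair growth in the Wnt gene values was not tested.

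**Figure D4:**
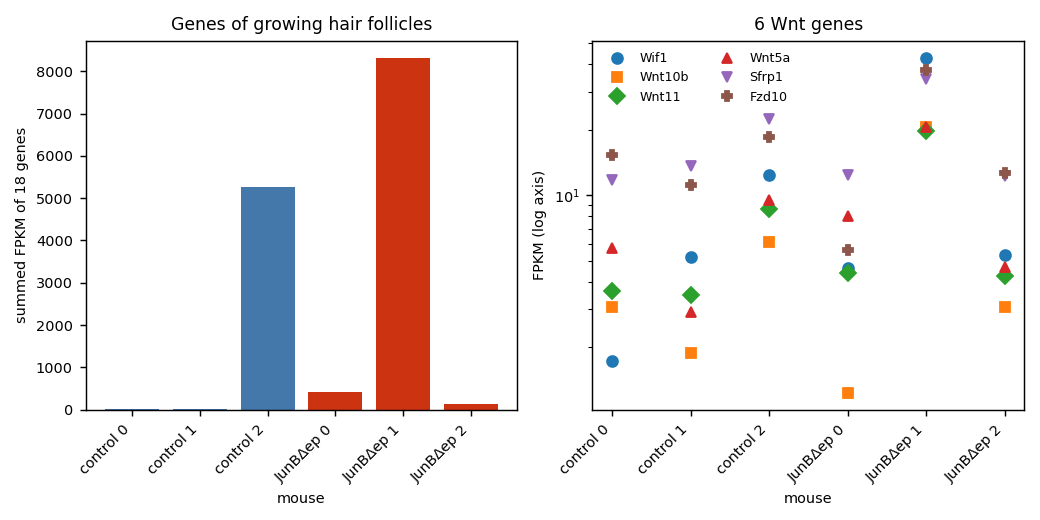
Left, the summed FPKM of 18 genes of growing hair follicles in each mouse (bars, blue for control and red for JunBΔep), and right, FPKM of 6 Wnt genes with the same order of mice (points, log axis). Control replicate 2, at 5266 FPKM, and JunBΔep replicate 1, at 8305 FPKM, lead on the left, and these mice are the highest for each of the 6 genes on the right, such as Wif1 at 12.3 and 43.0 FPKM.

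The library labelled JunBΔep replicate 0 shaped the low end. It had the lowest value of the 6 mice in 20 of the 41 members (48.8%), against 32% of all genes, and the highest in 7 members (17.1%), against 29.7% of all genes. These counts were also made after the values had been seen. The widest gap was that of Wnt3, whose lowest value in the other 5 mice was 11.9 times the value in this library. The gap was 4.63 times for Rspo3, 4.16 for Wnt2, 3.12 for Wnt6, 2.76 for Axin2 and 2.40 for Rspo1. In the other direction, Sfrp4 in this library was 3.39 times the highest value of the other 5. Beside these values, all 6 adipocyte markers were lowest in this library, at a summed 60.2 FPKM against 1279 to 9945 FPKM in the others, and the hair follicle stem cell genes summed to 167 FPKM against 1092 to 2579 FPKM. In the other mice that sum was mostly Krt15, at 80.7 FPKM in this library against 947 to 2388 FPKM, and Cd34, Sox9 and Nfatc1 were not lowest there. The 7 myeloid markers summed to 25736 FPKM there, and 6 of the 7 were highest there. Their sum was 1824, 207 and 226 FPKM in control skin against 88.8 and 302 FPKM in JunBΔep replicates 1 and 2. JunBΔep replicate 1 thus lay below the controls and JunBΔep replicate 2 within their range. In the library labelled JunBΔep replicate 0, S100a8 gave 24456 FPKM of the sum. Il1b was at 406 FPKM against at most 3.36 FPKM elsewhere, and the S100a8 partner S100a9 was listed at 0 in this library. The parts of these cell types and of the oral and oesophageal transcripts in the Wnt values of this library were not tested.

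**Figure D5:**
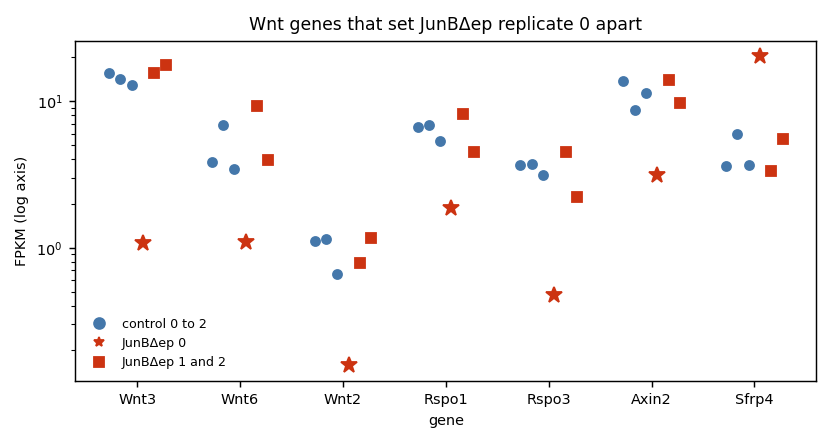
FPKM (log axis) of 7 Wnt genes in each mouse, with the library labelled JunBΔep replicate 0 as a star, controls as circles and JunBΔep replicates 1 and 2 as squares. The star is the lowest point for 6 genes, with Wnt3 at 1.08 FPKM against 12.9 FPKM or more, and the highest for Sfrp4 at 20.2 FPKM.

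Inside the cell and around these ligands and receptors, no further gene of the pathway was called. Of 58 further genes, which covered ligand secretion, receptor turnover, the β-catenin destruction complex, nuclear factors and feedback targets, 55 were tested. None was called by limma or had an unadjusted p below 0.05, 36 had a positive and 19 a negative log2 fold change, where 53.4% of all genes were positive, and their median was 0.15. The groups were apart in 4 of these 55 with JunBΔep higher, against 5.62% of all genes, and in 1 with JunBΔep lower, against 9.16% of all genes. Named after their values were seen, the 4 were Porcn, the enzyme that attaches the lipid to Wnt ligands, the destruction complex genes Axin1 and Csnk1d, and the target Myc, and the 1 was the nuclear cofactor Pygo1. Porcn was at 4.80, 5.74 and 6.52 FPKM in control skin against 40.2, 9.88 and 6.85 FPKM in skin labelled JunBΔep. Myc was at 19.2, 23.0 and 19.97 FPKM in control skin against 54.2, 27.5 and 27.2 FPKM in skin labelled JunBΔep. In both genes replicate 0 was well above the rest, and replicates 1 and 2 were above every control by less (limma adjusted p = 0.722 for Porcn and 0.666 for Myc). Pygo1 was at 1.28, 1.33 and 1.27 FPKM in control skin against 0.0897, 0.601 and 1.05 FPKM in skin labelled JunBΔep (limma adjusted p = 0.689).

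Among the other pathway genes, Lef1 and Nkd2 repeated the order of the hair growth markers, and the genes named here were chosen after their values were seen. JunBΔep replicate 1 was the highest mouse in 33 of the 58 pathway genes. The full order was not counted over that list. Lef1, the nuclear partner of β-catenin in the hair matrix, was at 0.427, 1.42 and 10.9 FPKM in control skin against 1.19, 39.2 and 2.02 FPKM in skin labelled JunBΔep. Nkd2, a feedback inhibitor, was at 4.0, 3.23 and 14.5 FPKM in control skin against 2.82, 33.9 and 3.11 FPKM in skin labelled JunBΔep. In each, JunBΔep replicate 1 was first and control replicate 2 next. Notum, an enzyme that inactivates Wnt ligands, was highest in the same JunBΔep mouse but not in that control, at 1.69, 6.68 and 3.10 FPKM in control skin against 0.576, 13.2 and 1.19 FPKM in skin labelled JunBΔep. Ctnnb1, which encodes β-catenin, was at 130.3, 134 and 193 FPKM in control skin against 257, 275 and 129.6 FPKM in skin labelled JunBΔep, with replicate 2 below every control.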

How the data were processed

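Total RNA of whole skin from 6 mice had been made into strand-specific poly(A) libraries. According to the study's methods, reads were checked with FastQC and aligned to mm9 with TopHat 2.0.10, Bowtie 1.0.0 and SAMtools 0.1.19 in the nextpresso pipeline, allowing 2 mismatches and 20 multihits, with iGenomes transcripts. Differential expression had been tested with DESeq2 on counts, which were not analysed here. The authors deposited FPKM values per gene and mouse, used as given. Cufflinks is listed in the submitters' processing notes with no role, and which program computed FPKM was not given in the sources used here. Reads shared between similar genes could be split between them, and multihits could affect such genes.

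Values were analysed as log2(FPKM + 0.5), which understates changes of low genes, with limma 3.58.1 in R 4.3.3 (intensity trend, no block, two-sided) for 17021 genes averaging 0.1 FPKM or more, and p-values were adjusted over all of them by Benjamini and Hochberg. The procedure was tested on simulated data. With 3 mice against 3, an exact permutation test cannot go below p = 0.1, so none is quoted. Genotypes and replicate numbers came from the sample labels. The replicates are separate mice, no batch is named in the labels, and sex is not given per mouse.

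The members and gene lists were chosen with earlier results of these data known. A fold change, standard error and adjusted p are given for members with an adjusted or unadjusted p below 0.05, for those whose groups did not overlap at a mean of 1 FPKM or more, for the 5 with the highest mean, and for Axin2. Other members are given by value, and pathway genes that do not meet the p criteria are said to have been picked after their values were seen. Positions on mm9 are from GENCODE vM1. Upstream windows of 250 bases on GRCm38.p6 are from RefSeq. Python 3.11.15 with pandas 2.3.3 and matplotlib 3.10.9 served for tables and plots.

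As alternatives, the pseudocount was set to 0.1 or 1, the filter dropped or raised to 1 FPKM, and libraries were rescaled (median ratios, equal sums of 1000000, or quantiles). In limma the trend was dropped, or robust fitting, array weights, a replicate block or a block by title number was added. An adjusted p of 0.1 and fits without each mouse were also tried. Leaving out both mice with replicate number 0 was added after the data had been seen.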

Additional observations from a re-analysis of the deposited data

How the results depend on the processing

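Fzd9, Fzd4, Wnt16 and Sfrp5 kept their direction in all 19 alternatives. The log2 fold change of Fzd9 ran from -3.31 to -1.80 and its adjusted p from 0.00298 to 0.202, with a call in 12 of the 19. Wnt16 ran from -1.78 to -1.14 (adjusted p 0.0145 to 0.449, called in 1), Fzd4 from -1.99 to -1.33 (called in 2) and Sfrp5 from -2.61 to -1.48 (adjusted p 0.0941 to 0.999, called in 0).

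The number of Wnt genes called, 1 of 41, was 2 at an adjusted p below 0.1 (Fzd9 and Wnt16) and 3 with array weights (Fzd4, Fzd9 and Wnt16), where the count over all genes went from 235 to 496 (12 of them higher) and the median log2 fold change of the Wnt genes from -0.06 to 0.25. Array weights gave JunBΔep replicate 0 a weight of 0.228 and control replicate 0 one of 3.82. With a replicate block, both counts were 0 (Fzd9 adjusted p = 0.152 from limma), as they were with a block on the title number series and with both replicate 0 mice left out. Deviations from the group means of same-numbered mice correlated at 0.12, -0.23 and -0.43 over genes. The highest value of all pairs was 0.46, between control replicate 2 and JunBΔep replicate 1. Deviations of 3 mice sum to 0, which constrains these values, so they cannot tell whether the replicate numbers pair the mice. With 1 mouse left out, the Wnt count ranged from 0 (without any control, or without JunBΔep replicate 1) to 2 (without JunBΔep replicate 2, Fzd4 and Fzd9), the count over all genes from 0 to 254, and the median of the Wnt genes from -0.32 (without JunBΔep replicate 1) to 0.15 (without JunBΔep replicate 0). It was 135 over all genes without JunBΔep replicate 0, 10 of them higher. The other pathway genes had 0 calls throughout.

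Of the 10 members followed through the alternatives, 3 uncalled genes changed sign. The remaining members, among them Fzd7 with a log2 fold change of -0.02, were not followed. With 1 mouse left out, Axin2 ran from -0.92 to 0.0754, Fzd1 from -0.0805 to 0.54 and Lrp5 from -0.0359 to 0.30. Lrp5 was at -0.0502 with array weights, and Axin2 at 0.23 without both replicate 0 mice. The cause of these shifts was not tested. Depth is unknown, so values of low genes carry no counting error here.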
